A study of Mus musculus with 82 samples.

Results

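The 8 costimulatory and checkpoint receptor genes, Icos, Pdcd1, Btla, Cd27, Cd96, Lag3, Tigit and Cd200, were followed in naive CD4 T cells across a panel of inbred mouse strains. They were taken by symbol from the 19752 genes that had a probe set annotated to 1 symbol, and each of the 8 was read by 1 such probe set. The study sorted CD3+CD4+CD62L+ cells from the spleens of male mice, removing cells stained for markers that included CD8, CD11c, CD25, CD49b, Gr1 and Ter119, and measured RNA on 82 Affymetrix arrays. The mice were untreated as far as the labels say, and each array holds cells of 2 to 3 pooled mice. Age is 6 weeks in the labels and 5 weeks in the series text, which also names bone marrow granulocytes where the labels give the sorted T cells.

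The arrays fell into 40 strain groups. C57BL/6J had 5 arrays, SWR/J had 1 and each of the other 38 strains had 2. There are 39 backgrounds in the labels, because CBA/CaJ is also the label of arrays titled C57BR. Arrays titled DBA2 are labelled DBA/1LacJ, and both sets were kept as groups of their own, here C57BR-titled and DBA2-titled. KK.Cg-Ay/J carries the Ay allele and BTBR T+ tf/J the T+ and tf alleles in their names. Values are normalized intensities, a brightness on a linear scale, and differences are given on the log2 scale. The median of all values was 113. All 8 measured naive T cell markers of the list used (among them Cd3e, Cd4 and Ccr7) had a strain median above it, as did 12 of 15 regulatory T cell, 12 of 23 activated or memory T cell and 3 of 4 CD8 T cell markers. Those 3 were Cd8b1 (strain median 593), Klrd1 (209, from 37.5 in 129S1/SvImJ to 1982 in JF1/Ms) and Ccl5 (126), which is also on the activated or memory list. Cd8a was dim, at 80.8. Of the other lists, 1 of 12 B cell, 0 of 10 NK cell, 0 of 7 neutrophil, 1 of 6 myeloid and 1 of 3 erythroid markers did. Replicate 2 of PL/J stood apart, with a mean log2 intensity of 8.69 over the B cell list against 5.75 on the median array, and replicate 2 of A/J had 7.43. To a lesser degree replicate 5 of C57BL/6J, the reference strain of later contrasts, was raised too. It had 6.24 over the B cell list, 5.48 over the NK cell list (median array 5.14) and 6.73 over the erythroid list (median array 6.16). Identical arrays were not found (0 pairs).

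A T cell needs a signal from its antigen receptor and a costimulatory signal to respond fully, and inhibitory receptors, called checkpoints, restrain that response. Some of the receptors, such as CD27, are carried by resting naive cells, whereas PD-1 (Pdcd1) and LAG-3 (Lag3) are known for rising on activation and exhaustion. CD96 and TIGIT bind CD155, encoded by Pvr, on other cells, and compete there with the activating receptor CD226.

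The 8 genes differed in how bright their probe sets were and in how far strains lay apart. Strain medians were 2924 for Cd27, 2778 for Cd96, 895 for Icos, 677 for Btla, 191 for Tigit, 146 for Pdcd1, 135 for Cd200 and 90.8 for Lag3, values that cannot be compared between probe sets. For Lag3, 1 of 40 strain means lay above the median of all values, for Cd200 30, for Pdcd1 39 and for the other genes 40. All 8 of 8 passed the moderated F-test for any difference between strains (limma, adjusted p below 0.05), where 47.6% of the 24922 probe sets did. Of the 14512 that exceeded the median of all values in at least 1 strain mean, 72.6% passed. The SD of the 40 strain means had a median of 0.24 over the 8 genes and of 0.14 over all probe sets. The intraclass correlation, which is the part of the variance found between rather than within strains, had a median of 0.752 over the 8 genes and 0.262 over all probe sets. Each of the 8 lay above both medians of all probe sets. In bulk samples, fewer cells that express a gene and less RNA per cell cannot be told apart.

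**Figure D1:**
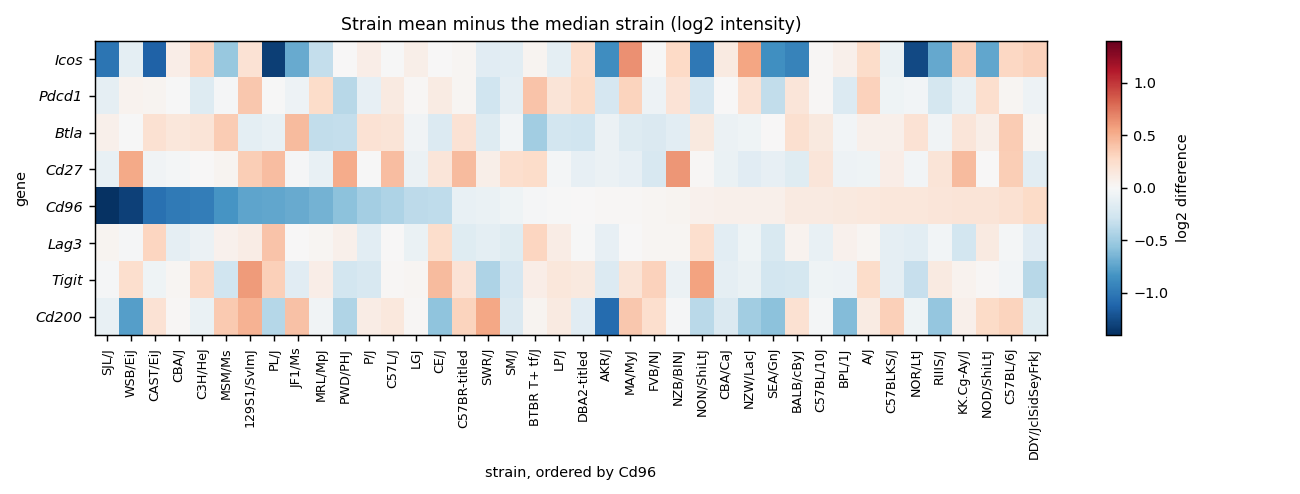
Each column is a strain, ordered from the lowest to the highest Cd96 mean, each row is a gene, and the colour is the strain mean minus that gene's median strain in log2 intensity. Among the darkest blue cells are Icos in PL/J and NOR/LtJ, Cd96 in SJL/J and WSB/EiJ, and Cd200 in AKR/J, and Lag3 shows the palest row.

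Cd96, a receptor of the nectin-binding family on T and NK cells, had the highest intraclass correlation of the 8. SJL/J was lowest at 1061 (arrays 972 and 1158), next came WSB/EiJ at 1124 (1098 and 1150), then CAST/EiJ at 1348 (1347 and 1348) and CBA/J at 1395 (1311 and 1483). DDY/JclSidSeyFrkJ was highest at 3339 (3334 and 3345), 3.15-fold above SJL/J. The arrays of SJL/J and WSB/EiJ overlapped each other and lay below every array of CAST/EiJ. The SD of strain means was 0.46 against a replicate SD of 0.11 (intraclass correlation 0.948, limma F-test, adjusted p = 7.83e-23). In order of strain means, 15 strains lay between 1061 and 2176, the highest of them CE/J. The next strain, C57BR-titled, stood at 2585 with arrays apart from those of CE/J, and 25 strains in all stood from there to the top. Between neighbouring strains of the order, 4 of 39 pairs had arrays that did not overlap, the largest step being 0.26 between WSB/EiJ and CAST/EiJ.

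The gene of the 12490 compared whose strain means were most like those of Cd96 was Plcxd2, which encodes a protein with a phospholipase C-like domain (Pearson r = 0.794 over 40 strain means, given as a description). In the gene order of GRCm38.p6 Plcxd2 is the nearest measured protein-coding gene on 1 side of Cd96, with 0 coding genes between. Plcxd2 ranged from 176 in CAST/EiJ (175 and 178) to 608 in FVB/NJ (519 and 712). The 16 strains lowest for Cd96 were the 16 lowest for Plcxd2, a number chosen after the values were seen. At the 15 lowest, 14 were shared: SJL/J, lowest for Cd96 at 1061, stood at 429 for Plcxd2, rank 16. Over the 7541 pairs of adjacent coding genes with both probe sets bright enough, the median r was 0.162, and 0.650% of pairs had an r as high as that of Cd96 and Plcxd2. The gene on the other side, Nectin3, had r = 0.19 and did not pass the F-test (adjusted p = 0.861), and the second gene on the Plcxd2 side, Phldb2, had r = -0.06. The next most alike genes were Fam3c (r = 0.573) and Pvr, which encodes the ligand CD155 (0.566).

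Because Cd96 and Plcxd2 are adjacent and moved together over strains, the 250 bases before each start are shown, and those of Btla and Tigit are added because they hold the same RUNX letters as Cd96. The sequences are those of RefSeq on GRCm38.p6, the reference of C57BL/6J, given 5′ to 3′ on the gene's own strand.
Cd96 (chr16:46120249-46120498, minus strand): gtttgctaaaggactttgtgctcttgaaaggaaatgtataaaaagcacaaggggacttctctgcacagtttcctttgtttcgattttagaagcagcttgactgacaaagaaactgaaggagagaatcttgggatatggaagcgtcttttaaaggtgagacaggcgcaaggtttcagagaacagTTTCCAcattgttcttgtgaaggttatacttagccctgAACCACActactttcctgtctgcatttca
Plcxd2 (chr16:46010414-46010663, minus strand): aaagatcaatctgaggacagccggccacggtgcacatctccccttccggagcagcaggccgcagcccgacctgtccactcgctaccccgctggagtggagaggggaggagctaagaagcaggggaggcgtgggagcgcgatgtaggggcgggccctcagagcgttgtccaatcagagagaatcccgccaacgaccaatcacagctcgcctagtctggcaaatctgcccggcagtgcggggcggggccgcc
Btla (chr16:45224087-45224336, plus strand): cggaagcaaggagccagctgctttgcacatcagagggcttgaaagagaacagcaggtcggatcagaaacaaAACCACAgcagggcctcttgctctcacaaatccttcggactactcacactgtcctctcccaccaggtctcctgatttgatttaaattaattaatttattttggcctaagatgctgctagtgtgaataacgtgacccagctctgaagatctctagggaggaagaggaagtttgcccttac
Tigit (chr16:43664185-43664434, minus strand): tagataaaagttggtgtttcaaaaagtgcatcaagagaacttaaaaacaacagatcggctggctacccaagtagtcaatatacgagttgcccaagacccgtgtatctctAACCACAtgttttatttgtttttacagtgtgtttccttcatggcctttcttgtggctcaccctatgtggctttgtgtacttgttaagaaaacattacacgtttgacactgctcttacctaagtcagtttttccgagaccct
Capitals mark matches, on either strand, to 5 short motifs. The letters searched were TGTGGTT for RUNX factors, TGGAAA for NFAT and TGANTCA for AP-1. They were TGTTTAC for forkhead and CTTTGAT for TCF/LEF factors. All matches shown read on the other strand, and none overlaps another. RUNX letters were in the windows of Cd96, Btla and Tigit and in 4.40% of 32851 promoter windows of this length, and NFAT letters were in Cd96 and in 18.6%. AP-1 letters were in 6.75% of windows, forkhead letters in 3.17% and TCF/LEF letters in 3.21%, and none of those 3 in the windows of the 6 receptor genes that the tables hold, which are Pdcd1, Btla, Cd27, Cd96, Tigit and Cd200. The Plcxd2 window held none of the 5. A match describes letters only. GC content was 41.2% for Cd96 and 65.6% for Plcxd2, with a median of 52.4% over all windows.

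Icos, the inducible costimulator that supports follicular helper T cells, had the widest range of strain means. PL/J was lowest at 359 (arrays 420 and 306), followed by NOR/LtJ at 373 (321 and 434), CAST/EiJ at 408 (363 and 458) and SJL/J at 440 (399 and 486). The lower PL/J value was on replicate 2, the array rich in B cell markers, and replicate 1 alone lay above the means of NOR/LtJ and CAST/EiJ. MA/MyJ was highest at 1393 (1333 and 1456), 3.88-fold above PL/J, and NZW/LacJ next at 1314 (1296 and 1333). The arrays of these 2 strains lay above those of KK.Cg-Ay/J (1121 and 1130), the next strain down. They were not clear of DDY/JclSidSeyFrkJ (912 and 1370), whose higher array exceeded both NZW/LacJ arrays and lay between those of MA/MyJ. The DDY/JclSidSeyFrkJ arrays were the farthest apart for Icos, by 0.59. Among the 4 lowest strains neighbours overlapped. For Icos the SD of strain means was 0.53 against a replicate SD of 0.15 (intraclass correlation 0.921, limma F-test, adjusted p = 4.90e-20). In order of strain means, 12 strains stood between 359 and 618, the highest of them MSM/Ms. MRL/MpJ stood alone at 710 (711 and 710), apart from both neighbours, and the strains above it began with SWR/J at 804. Between neighbouring strains 5 of 39 pairs had arrays apart. The largest step was near the top, 0.22 between KK.Cg-Ay/J and NZW/LacJ, and the steps on either side of MRL/MpJ were 0.20 and 0.18.

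On the chromosome Icos neighbours Ctla4, the inhibitory receptor that binds the same ligands as CD28, and then Cd28. Ctla4 followed Icos over strain means with r = 0.527, and Cd28 had r = -0.02. Of adjacent coding gene pairs 12.5% had an r at or above that of Icos and Ctla4. The genes most like Icos were Ddx47, an RNA helicase gene (r = 0.704), Mlec (0.697) and Tmed2 (0.676), none on its chromosome.

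**Figure D2:**
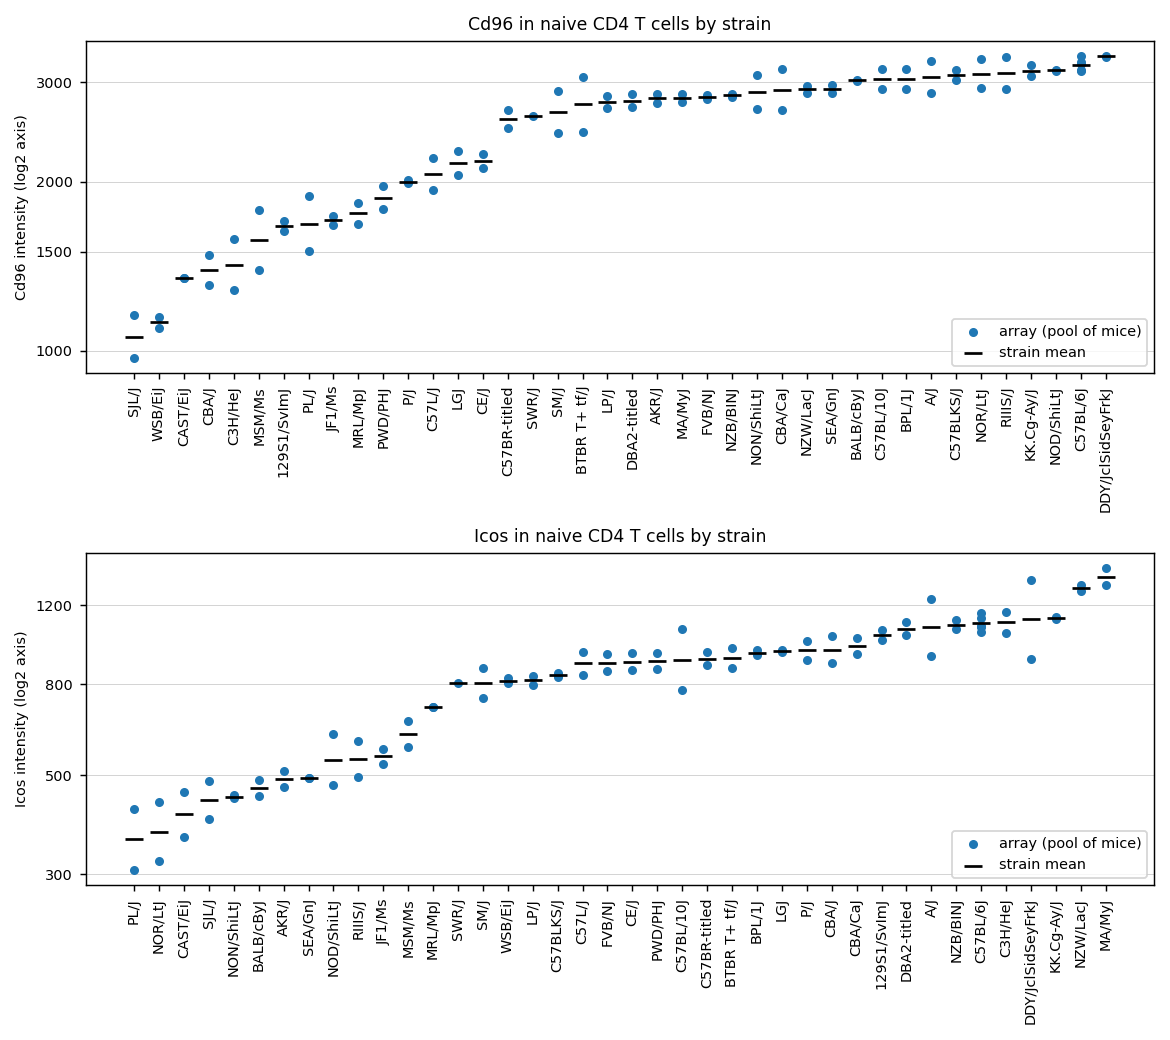
Points are arrays and short bars strain means of Cd96 (top) and Icos (bottom), as intensity on a log2 axis, with strains in order of the mean. In each panel a group of strains lies low: 15 strains lie at or below 2176 for Cd96 and 12 at or below 618 for Icos. These limits were set from the same values. PL/J, CAST/EiJ, SJL/J, JF1/Ms and MSM/Ms lie in the low range of both, but over strain means the 2 genes were not related (r = 0.206, permutation test, adjusted p = 0.443).

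Cd27, the costimulatory receptor of the TNF receptor family that binds CD70 and promotes survival, was bright in every strain. FVB/NJ was lowest at 2502 (2395 and 2614) and NZB/BINJ highest at 4491 (4187 and 4818), a 1.79-fold range. The 5 arrays of C57BL/6J stood at 3865, 3595, 3698, 3659 and 3784. WSB/EiJ (4215) and PWD/PHJ (4201) came next below NZB/BINJ, and their arrays overlapped with it. Over strains the SD was 0.23 against a replicate SD of 0.10 (intraclass correlation 0.824, limma F-test, adjusted p = 5.03e-11), and 2 of 39 neighbouring pairs had arrays apart. The gene most like Cd27 was Ncapd2, a condensin subunit gene that lies 3 coding genes away (r = 0.746), and Tapbpl, which is adjacent, had r = 0.547. Vamp1, next beyond Tapbpl, had r = -0.16.

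Btla, an inhibitory receptor of the immunoglobulin family whose ligand is HVEM (Tnfrsf14), was lowest in BTBR T+ tf/J at 483 (384 and 608) and highest in JF1/Ms at 920 (898 and 943). The BTBR T+ tf/J arrays were the farthest apart for this gene, by 0.66, and they overlapped with those of the next strain, MRL/MpJ (482 and 589). The SD of strain means was 0.21 against a replicate SD of 0.15 (intraclass correlation 0.593, limma F-test, adjusted p = 1.74e-05). Btla and Cd200 are adjacent in the reference gene order, and their strain means had r = 0.276, a value that 37.2% of adjacent coding pairs reached. On its other side Atg3, an autophagy gene, had r = 0.521. Its most alike gene was Exoc4 (r = 0.718), then Cep170 (0.715) and Chd9 (0.695).

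Cd200, which encodes the ligand of the inhibitory receptor CD200R, was lowest in AKR/J at 64.1 (57.8 and 71.1), and next in WSB/EiJ at 79.1 (70.4 and 88.9). Both lie within the strain medians of the neutrophil markers (25.7 to 86.3), so no fold of the range is given and differences from these strains rest on dim signal. SWR/J was highest at 196 on its only array, and 129S1/SvImJ next at 189 (171 and 209). The 2 lowest strains overlapped slightly and both lay below the median of all values. Strain means had an SD of 0.37 against a replicate SD of 0.18, the largest replicate SD of the 8 (intraclass correlation 0.789, limma F-test, adjusted p = 3.61e-11). The largest array gap was 0.69, in NOD/ShiLtJ. The most alike gene, Sall2, had r = 0.586.

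Tigit, the inhibitory receptor that binds CD155, was lowest in SWR/J at 142 on its only array and then in DDY/JclSidSeyFrkJ at 146 (136 and 158). It was highest in 129S1/SvImJ at 290 (298 and 283), followed by NON/ShiLtJ at 283 (245 and 327) and CE/J at 259 (242 and 277). The 5 arrays of C57BL/6J ran 130, 212, 188, 183 and 236, a wider spread than the 2 arrays of any other strain for this gene. The SD of strain means was 0.25 against a replicate SD of 0.16 (intraclass correlation 0.645, limma F-test, adjusted p = 1.51e-06). None of the 39 neighbouring pairs had arrays apart. The most alike genes were Ccna2 (r = 0.670) and Plk1 (0.659), which encode a cyclin and a mitotic kinase, and Ikzf3 (0.634), a lymphoid transcription factor gene.

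Pdcd1, which encodes PD-1, was lowest in PWD/PHJ at 112 (110 and 114) and highest in BTBR T+ tf/J at 192 (172 and 215), with 129S1/SvImJ at 190 (182 and 197). Strain means had an SD of 0.20 against a replicate SD of 0.11 (intraclass correlation 0.715, limma F-test, adjusted p = 2.41e-07), and 0 of 39 neighbouring pairs had arrays apart. Dok1, an adaptor that dampens signalling from receptors, was the most alike gene (r = 0.773), followed by Actn4 (0.688) and Lrrc59 (0.670).

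Lag3, which binds MHC class II and restrains T cells, varied least. KK.Cg-Ay/J was lowest at 75.9 (75.7 and 76.2) and PL/J highest at 120 (123 and 117). CAST/EiJ stood at 112 (115 and 108), and the C57BL/6J arrays at 82.7, 83.5, 75.5, 91.0 and 118. The SD of strain means was 0.15, close to the replicate SD of 0.14 (intraclass correlation 0.406, limma F-test, adjusted p = 0.00736), and 1 of 39 neighbouring pairs had arrays apart. Its call was lost with the mean of an activated or memory T cell marker list as a covariate (adjusted p = 0.0507, where it ran from 0.000124 to 0.0507 over 95 alternatives).

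The strains were then set against C57BL/6J, the reference strain, in 38 contrasts that share its 5 arrays, so that counts from different contrasts are not independent. Of the 304 values of the 8 genes, 87 were lower than in C57BL/6J (28.6%, against 5.21% of all contrasts of all probe sets) and 9 were higher (2.96%, against 2.31%). The shares over all probe sets include dim ones, and shares over bright probe sets alone were not computed for these contrasts. The lower calls were in Cd27 (24 strains), Icos and Btla (16 each), Cd96 (15), Cd200 (14) and Pdcd1 (2). The higher calls were in Tigit (4 strains), Lag3 (3) and Pdcd1 (2). In the order from the highest strain mean, C57BL/6J was rank 2 for Cd96, 3 for Btla, 6 for Icos, 7 for Cd200, 8 for Cd27, 16 for Pdcd1, 22 for Tigit and 23 for Lag3. The higher calls numbered 4 without C57BL/6J replicate 1, 6 without replicate 3 and 14 without replicate 5, with the lower calls at 81 to 93 over all arrays left out in turn. Replicate 5 is the C57BL/6J array raised on marker lists of other cells. Without it 53.8% of all probe sets passed the F-test, against 47.6% with it. The higher calls were 16 with quantile normalization and 5 with the mean of the regulatory T cell marker list as a covariate. The calls of Btla fell from 16 to 8 strains and those of Cd27 from 24 to 13 when each array was centred on its median.

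The largest differences from C57BL/6J were in Icos and Cd96. Icos fell by 1.61 ± 0.13 (SE) in PL/J (limma, adjusted p = 1.45e-14) and fell by 1.55 ± 0.13 in NOR/LtJ. The PL/J value includes replicate 2 (306), the array rich in B cell markers. Replicate 1 of PL/J read 420, above the NOR/LtJ mean of 373, so the order of these 2 strains rests on replicate 2. Cd96 fell by 1.60 ± 0.10 in SJL/J (limma, adjusted p = 6.83e-19). The 5 C57BL/6J arrays lay between 1045 and 1156 for Icos and between 3142 and 3345 for Cd96, so that neither PL/J nor SJL/J arrays overlapped with them. Cd200 fell by 1.39 ± 0.15 in AKR/J (limma, adjusted p = 2.45e-10), Btla fell by 0.84 ± 0.13 in BTBR T+ tf/J (adjusted p = 2.71e-06) and Cd27 fell by 0.57 ± 0.09 in FVB/NJ (adjusted p = 1.00e-05). The Cd200 difference rests on dim signal, since AKR/J at 64.1 lies within the strain medians of the neutrophil markers (25.7 to 86.3). Of the genes called higher, Tigit was 0.64 ± 0.13 higher in 129S1/SvImJ (limma, adjusted p = 0.000581), Lag3 0.43 ± 0.12 in PL/J (adjusted p = 0.00461) and Pdcd1 0.37 ± 0.10 in BTBR T+ tf/J (adjusted p = 0.00696). The Lag3 difference rests on dim signal too, since C57BL/6J stood at 89.1 for this gene, below the median of all values. Lag3 was called in 1 to 5 strains when single C57BL/6J or CAST/EiJ arrays were left out, against 3, with 1 strain without replicate 1, 2 or 3 of C57BL/6J or either CAST/EiJ array and 5 without C57BL/6J replicate 5. PL/J was the only strain with 4 genes lower (Icos, Btla, Cd96 and Cd200) and 2 higher (Lag3 and Tigit). At least 1 gene was lower in 34 strains, and in C57BL/10J, C57BLKS/J, C57BR-titled and KK.Cg-Ay/J none of the 8 was called either way.

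**Figure D3:**
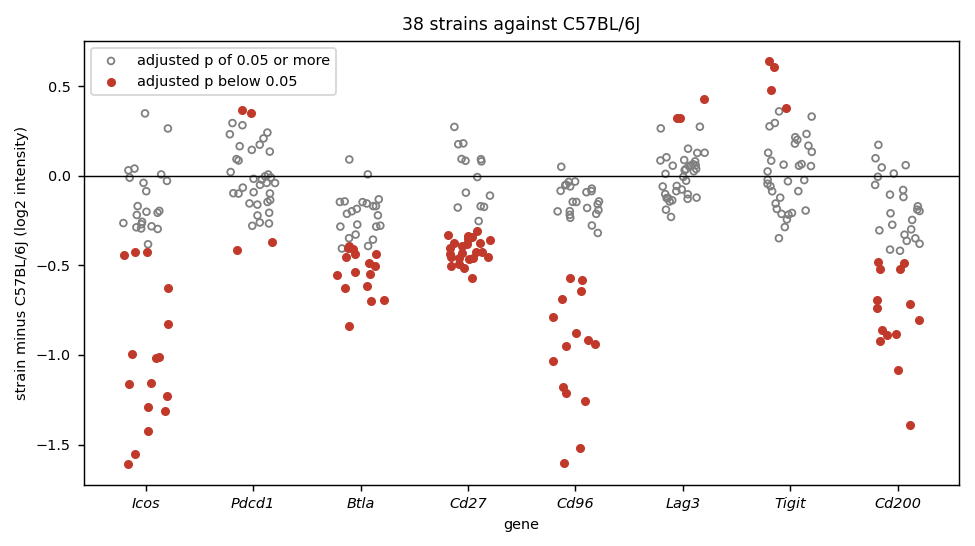
Each point is 1 of 38 strains, its difference from C57BL/6J in log2 intensity on the y axis and the gene on the x axis, with a random sideways shift. Filled red points passed the threshold (limma, adjusted p below 0.05): 87 lie below 0 and 9 above, and the lower points of Icos, Cd96 and Cd200 reach beyond a fall of 1.

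Pairs of strains with much shared ancestry gave 2 calls in 32 values, both in Cd96. In CBA/J, Cd96 stood at 1395 (1311 and 1483) and in CBA/CaJ at 2914 (2676 and 3174), so the arrays did not overlap. The difference of -1.06 ± 0.12 passed (limma, adjusted p = 4.90e-09), where 0.361% of probe sets did for that pair. In 129S1/SvImJ, Cd96 stood at 1669 (1634 and 1705) and in LP/J at 2773 (2704 and 2843), a difference of -0.73 ± 0.12 (limma, adjusted p = 2.89e-05), where 1.01% of probe sets passed. Plcxd2 pointed the same way in both pairs without passing (-0.51, adjusted p = 0.206, and -0.26, adjusted p = 0.352). For NOD/ShiLtJ against NOR/LtJ 0 of 8 genes passed, where 0.506% of all did, and for C57BL/10J against C57BL/6J 0 of 8, where 2.49% did. Icos was 542 in NOD/ShiLtJ and 373 in NOR/LtJ (difference 0.54 ± 0.15, limma adjusted p = 0.125), with adjusted p from 0.00574 to 1.00 over 94 alternatives. It passed with quantile normalization (adjusted p = 0.00611), with array weights (0.00574) and without NOR/LtJ replicate 1 (0.0389).

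The strains JF1/Ms, MSM/Ms, PWD/PHJ and CAST/EiJ descend wholly or in large part from subspecies other than Mus musculus domesticus, and they were compared with the other 36 strains using 1 mean per strain. None of the 8 genes passed (limma, 8.73% of all probe sets did), and 1 of 8 had an unadjusted p below 0.05. That gene was Cd96, at 1706, 1573, 1872 and 1348 in these strains in the order above, all below the mean of the others (2454, with strains from 1061 to 3339). The difference was -0.61 ± 0.22 (unadjusted p = 0.00797, adjusted p = 0.0763, from 0.0490 to 0.421 over 96 alternatives). Icos was at 551, 618, 900 and 408, with a mean difference of -0.43 ± 0.26 (limma, adjusted p = 0.396). Btla was above the mean of the others in 3 of the 4 strains but at 535 in PWD/PHJ (0.18 ± 0.10, limma, adjusted p = 0.359).

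Relations between genes over the 40 strain means were computed for the 28 pairs of the 8 genes and for each gene against the means of 5 marker lists, 68 in all. Strains share ancestry, so these permutation p-values are too small. Of the 28 pairs 14 had r above 0, with a median of 0.0019 and a range from -0.33 to 0.49, and 0 passed by both Pearson and Spearman. The highest was Lag3 with Tigit (r = 0.493, raw p = 0.00137, adjusted p = 0.0186, rho = 0.410, raw p = 0.00921, adjusted p = 0.105, permutation tests). Of the relations to lists, 4 passed by both measures. Tigit rose with the mean of 15 regulatory T cell markers (r = 0.589, rho = 0.633, raw permutation p = 8.00e-05 and 1e-05, adjusted p = 0.00272 and 0.000680), and so did Pdcd1 (r = 0.579, rho = 0.564, raw permutation p = 0.000140 and 0.000270, adjusted p = 0.00272 and 0.00459). Without JF1/Ms and 129S1/SvImJ, the strains farthest from the median of the list, r was 0.539 for Tigit and 0.556 for Pdcd1. The list mean ran from 7.30 to 8.46 over arrays, and 14 of 15 of its genes passed the F-test, among them the lineage factor Foxp3, whose strain means lay between 248 (JF1/Ms) and 926 (129S1/SvImJ). With this list mean as a covariate all 8 genes passed the F-test, and Pdcd1 was called against C57BL/6J in 2 strains in place of 4.

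Lag3 rose with the mean of 10 NK cell markers (r = 0.684, rho = 0.634, raw permutation p = 1e-05, the smallest the permutations can give, and 3.00e-05, adjusted p = 0.000680 and 0.00102). Without CAST/EiJ and PL/J r was 0.517. It rose with 23 activated or memory T cell markers too (r = 0.579, rho = 0.599, raw permutation p = 0.000160 and 0.000100, adjusted p = 0.00272 and 0.00227), and r was 0.494 without KK.Cg-Ay/J and CE/J. The NK list mean ran from 4.93 to 5.71 over arrays and was highest on PL/J replicate 2. Of its 10 genes 6 passed the F-test, against 47.6% of all probe sets, Gzma reaching 323 in CAST/EiJ against a strain median of 28.3. None of the 10 had a strain median above the median of all values. With the B cell list, also mostly dim, Lag3 passed by Pearson only (r = 0.480, rho = 0.391, adjusted permutation p = 0.0369 and 0.107). That r was 0.346 without the strains PL/J and A/J. Without PL/J replicate 2 and A/J replicate 2, r was 0.602 for the NK list and 0.474 for the activated or memory list. Maf, a transcription factor gene of that list, was the gene most like Lag3 (r = 0.685), followed by Hmox1 (0.659). Over the deviations of 81 arrays from their strain means, r was 0.465 for Lag3 with the NK list, 0.433 with the activated or memory list, 0.308 for Tigit and 0.413 for Pdcd1 with the regulatory T cell list. Such values were not particular to these relations: 21 of the 68 lay above 0.3, among them Cd27 with the regulatory T cell list (0.477, with r = -0.02 over strain means) and Cd96 with the naive T cell list (0.447, with r = -0.13).

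**Figure D4:**
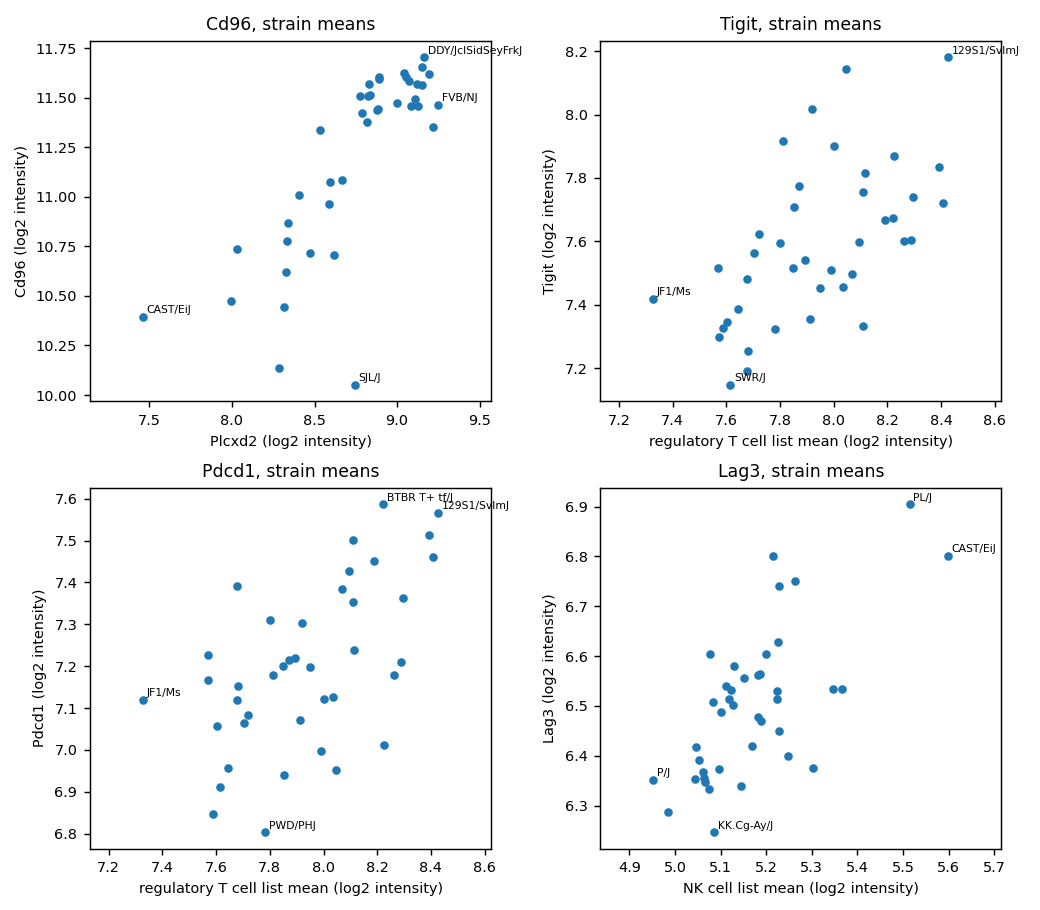
Each point is the mean of a strain in log2 intensity, with Cd96 against Plcxd2 (r = 0.794), Tigit (0.589) and Pdcd1 (0.579) against the mean of the regulatory T cell list, and Lag3 against that of the NK cell list (0.684). Named points are the strains at the ends of each axis, and PL/J and CAST/EiJ stand apart to the right in the Lag3 panel.

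Other genes of the same pathways were read from lists. Of 21 measured other costimulatory and inhibitory receptors 17 passed the F-test, against 47.6% of all probe sets and 72.6% of the bright ones, led by Tnfrsf14, the HVEM gene (1053 in NZW/LacJ to 2734 in PL/J, adjusted p = 4.34e-20), Lair1, Ctla4 (95.8 in AKR/J to 372 in 129S1/SvImJ) and Tnfrsf25. Havcr2, Havcr1, Cd160 and Klrg1, receptors of activated or exhausted cells, had strain medians of 24.7, 27.7, 67.5 and 36.2 and did not pass. Of 16 ligands, 3 of them with a strain median above the median of all values, 5 passed, a lower share than over all probe sets: Pvr (295 in PWD/PHJ to 969 in C57BL/6J, adjusted p = 5.34e-17), Icosl (59.9 in SWR/J to 325 in JF1/Ms), Cd86, Cd274 and Tnfsf9. Of 19 signalling genes 17 passed, led by Dok2 (323 in SWR/J to 1028 in MSM/Ms, adjusted p = 8.34e-25), Traf1, Ptpn6, the SHP-1 phosphatase gene, and Inpp5d. By descent of the strains, where 8.73% of all probe sets passed, 1 of the 21 other receptors was higher (Cd28, 0.58) and 4 were lower in the 4 non-domesticus strains (Tnfrsf25, Cd101, Cd2 and Cd200r1, the receptor of CD200). Icosl was higher there by 1.46 and Pvr lower (-0.65), both past the threshold. Of the 19 signalling genes Traf1 was higher (0.82) and Pik3r1, a subunit gene of PI3 kinase, was lower (-0.22).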

How the data were processed

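Per the submitters' processing notes the arrays were processed with RMA and Affymetrix Power Tools, whose versions are not given in the sources used here. What the authors deposited is 1 normalized linear intensity per probe set and array, for 24922 probe sets and 82 arrays whose medians lay between 102 and 142. They were taken to log2 with no filter. Probe sets were named from the platform annotation: 21425 had 1 symbol, 1399 several and 2098 none. The genome build of the probe sets is not given, so the GRCm38.p6 tables served only for gene order and promoter sequences.

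A model with 1 coefficient per strain was fitted in limma 3.58.1 (R 4.3.3; lmFit and eBayes, 42 residual and 8.09 prior degrees of freedom), with Benjamini-Hochberg adjustment across the 24922 probe sets and a threshold of 0.05. The comparison by descent used limma on 40 strain means. Relations used 100000 two-sided permutations (Python 3.11.15, numpy 2.4.6), adjusted over the family of 68. The limma steps were tested on simulated data. Each array is a pool, and p-values measure the spread between pools. Batches of arrays are not given in the labels. The number of arrays limits the precision. Most strains have arrays numbered 1 and 2, which the labels do not tie together, and the deviations of same-numbered arrays showed no common sign over 666 pairs of groups (correlations from -0.63 to 0.57, median -0.00044, 31.5% over 0.1), so arrays were not paired. A median near 0 cannot show whether some arrays share technical variation, which was not tested. With the replicate number fitted, 52.5% of all probe sets passed the F-test, against 47.6% without.

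The genes, lists and tests were chosen with earlier results of these data known. Named beside the 8 genes were the 3 genes most like each by Pearson r, the nearest genes, and up to 4 genes per list with the smallest adjusted p; a few further names were picked with values in view. The alternatives were other normalizations, filters, priors, offsets, covariates, weights, the replicate block, and leaving out arrays or strains.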

Additional observations from a re-analysis of the deposited data

How the results depend on the processing

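Of 2296 tested values of single genes recomputed under the alternatives, 2289 kept their side of the threshold. Values that passed neither before nor after are counted as kept. Among called values 0 changed sign, whereas some values that did not pass changed sign. Related-pair values were recomputed for Cd96 and Icos only. Of 752 recomputed counts of strains called per gene against C57BL/6J, 740 lay within 1.5 times the count reported. In that span Cd200 ran from 10 to 16 and Btla reached 21. Most of the alternatives left out a single array, which leaves the means of all other strains unchanged. Both shares were therefore bound to be high, and they cannot show how far the results withstand other processing. The count of genes that differed between strains was 7 to 8, and that of calls against C57BL/6J ran from 74 with each array centred on its median to 104 without the dimmest 40% of probe sets. With the replicate block, which fits the replicate number of each array, the counts were 8 genes between strains, 93 calls against C57BL/6J and 2 related-pair calls, and the block moved the strains called for Lag3 from 3 to 5 and for Tigit from 4 to 7. Quantile normalization moved those of Pdcd1 from 4 to 7. Array weights gave 5 related-pair calls against 2. By descent, 1 gene passed in place of 0 with the activated or memory T cell list mean as a covariate (Tigit, -0.52, adjusted p = 0.00384, where it ran from 0.00384 to 0.993) and 1 without PWD/PHJ (Btla, 0.35, adjusted p = 0.0332, from 0.0332 to 0.861). Relations past both measures rose from 4 to 8 without the 4 non-domesticus strains. The cause was not tested in any of these. Leaving out each array in turn gave 87 to 101 calls against C57BL/6J, 2 to 3 in related pairs, 8 to 8 genes between strains and 0 to 1 by descent, the 1 being Cd96 without MSM/Ms replicate 2 (-0.65, adjusted p = 0.0490). Another probe set of the same gene could not be tried, since each of the 8 has 1. Relations were not recomputed without dim probe sets, so their dependence on the dim genes of the lists was not tested. Each gene rests on 1 probe set whose probe sequences were not used here, so base differences between strains within probes were not tested. Lag3 lies below the median of all values in 39 of 40 strains, and Cd200 in 10, so differences there rest on dim signal. Most strains have 2 arrays.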
